A study of Mus musculus with 22 samples.

Results

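The methyl-CpG binding proteins described here were the 7 mouse genes Mbd1, Mbd2, Mbd3, Mbd4, Zbtb4, Zbtb33 and Zbtb38. They were found by exact match of the gene symbol, and all 7 were listed among the 34866 gene identifiers of the culture tables and the 23911 of the whole-number cartilage table. Messenger RNA had been measured in 22 samples from mice. The comparisons asked how gene expression differed with loss of Dnmt1, the enzyme that copies CpG methylation onto newly made DNA. They also set untreated cultures against cultures after 3 days of bone morphogenetic protein 2 (BMP2). Of the 22 samples, 14 were primary chondrocyte cultures from knee articular cartilage of mice at postnatal day 3 to 5, grown with fetal bovine serum. Control cultures were labelled Dnmt1 flox, and conditional knockout (cKO) cultures Prrx1-Cre;Dnmt1 flox/flox, in which a limb mesenchyme promoter drives the recombinase. At day 0 there were 3 untreated control and 3 untreated cKO cultures, and at day 3 there were 4 of each after 3 days of BMP2, which the labels give at 100 ng/µl. The other 8 samples were cartilage of mice at postnatal day 5, 4 control and 4 cKO, digested with collagenase. In each cartilage genotype replicates 1 and 2 were male and replicates 3 and 4 female. Which exons of Dnmt1 were deleted, and how many animals went into a culture, was not given in the labels, so p-values measure the spread between these samples.

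Proteins of this group read methylated CpG in DNA and bring in enzymes that silence or repair it. The MBD family uses a methyl-CpG binding domain. MBD1 works with the histone H3 lysine methyltransferase SETDB1, MBD2 and MBD3 are alternative subunits of the NuRD deacetylase and remodelling complex, and MBD4 is a DNA glycosylase that removes thymine and uracil mispaired at CpG. Mammalian MBD3 carries the domain but binds methylated DNA poorly. The second family uses zinc fingers next to a BTB domain: ZBTB33 (Kaiso), ZBTB4 and ZBTB38.

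Sequences before an annotated start of the 3 genes whose levels changed most are shown because CpG is the dinucleotide that DNMT1 keeps methylated. Letters are from RefSeq on GRCm38.p6, cover only the bases before the start that lie outside annotated exons, and run 5′ to 3′ on the strand of the gene, with every CpG in capitals. The Zbtb38 stretch is chr9:96731743-96731925 on the minus strand, the Mbd3 stretch chr10:80399551-80399781 on the minus strand, and the Zbtb4 stretch chr11:69765662-69765911 on the plus strand. The Mbd3 and Zbtb4 stretches precede the 5′ end of the gene, while the Zbtb38 stretch precedes an annotated start inside the gene and lies within an intron of its longer transcripts.
Zbtb38: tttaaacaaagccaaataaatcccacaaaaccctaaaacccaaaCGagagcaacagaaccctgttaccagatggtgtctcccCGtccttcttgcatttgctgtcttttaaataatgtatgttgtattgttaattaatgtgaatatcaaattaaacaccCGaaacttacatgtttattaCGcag
Mbd3: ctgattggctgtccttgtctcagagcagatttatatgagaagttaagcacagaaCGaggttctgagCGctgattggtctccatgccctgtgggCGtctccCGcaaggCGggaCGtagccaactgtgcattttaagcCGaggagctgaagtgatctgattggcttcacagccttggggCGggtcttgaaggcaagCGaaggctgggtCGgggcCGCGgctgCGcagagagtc
Zbtb4: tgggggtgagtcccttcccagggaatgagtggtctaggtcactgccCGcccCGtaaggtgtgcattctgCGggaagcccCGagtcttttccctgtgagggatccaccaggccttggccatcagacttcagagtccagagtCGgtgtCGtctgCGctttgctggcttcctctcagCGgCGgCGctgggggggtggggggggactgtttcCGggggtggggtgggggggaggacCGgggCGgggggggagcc
The printed stretches held 4 CpG in 183 bases for Zbtb38, 13 in 231 bases for Mbd3 and 13 in 250 bases for Zbtb4. In 300-base windows around the start, 250 bases before it and 50 after, Zbtb38 had 3 annotated starts, all inside the annotated gene, with 8, 41 and 25 CpG. The first is printed in part, and the bases before the other 2 overlap annotated Zbtb38 exons and are not printed. Mbd3 and Zbtb4 had 22 CpG each, Mbd4 had 25 and Zbtb33 had 34, against a median of 7 and quartiles of 3 and 20 over 32851 windows. Windows were matched for 5 of the 7 genes. On either strand, TCCTGCNA, a sequence bound by Kaiso without methylation, was in the Mbd3 window and in none of the other 6 windows of these genes. It was present in 4.96% of all windows. CGCG, a core of the methylated sites that Kaiso binds, was in the windows of Mbd3, Mbd4 and Zbtb33 and in 2 of the 3 of Zbtb38, was not in that of Zbtb4, and was present in 38.0% of all windows. The files analysed here hold RNA levels only, so methylation of these stretches was not measured.

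On GRCm38, in the GENCODE M21 annotation, Mbd1 lies on chromosome 18 at 74267605 to 74282732 and Mbd2 on the same chromosome at 70568189 to 70626131. Mbd3 lies on chromosome 10 at 80392539 to 80399550, Mbd4 on chromosome 6 at 115840697 to 115853371, and Zbtb4 on chromosome 11 at 69765912 to 69784023. Zbtb33 lies on the X chromosome at 38189793 to 38197046, and Zbtb38 on chromosome 9 at 96682770 to 96752831. Counts were per whole gene. Exons of Mbd4 are overlapped by the antisense gene Gm44206 and an exon of Tmem255a overlaps Zbtb33 on the opposite strand. The strand setting of the counting was not given in the sources used here, so reads of these pairs may not have been told apart.

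Day 0 cultures held 41749327 to 51741478 counts each, day 3 cultures 14434197 to 18918714, and cartilage samples 1100198 to 1888896. Dnmt1 itself was at 153.1 to 165.6 CPM (the count scaled by library size) in day 0 controls against 26.8 to 32.8 in cKO. At day 3 the ranges were 63.3 to 81.5 and 10.9 to 35.6, and in cartilage 34.5 to 48.6 and 11.8 to 14.3, with no overlap in any setting. Its log2 fold change, cKO over control, was -2.44 at day 0, -1.41 at day 3 and -1.66 in cartilage, with Benjamini-Hochberg adjusted p of 1.62e-08, 0.00625 and 6.34e-05 in edgeR's quasi-likelihood test. The day 3 value was -1.17 without cKO replicate 4 (edgeR adjusted p = 2.52e-04), and the cartilage value -0.78 in the authors' estimated counts (adjusted p = 0.0108), where the means were 52.9 and 30.6 CPM. Summed CPM of 6 chondrocyte markers was 124700 to 131900 in day 0 controls against 46820 to 56790 in cKO, and 79030 to 97550 against 917.2 to 14650 at day 3. In cartilage it was 58190 to 88290 against 25550 to 53630. The sum of 6 skeletal muscle markers was 2.36 to 3.00 CPM in day 0 controls against 28.8 to 39.4 in cKO. Myod1, Myog and Myl1 were at the floor of 3 counts or fewer in every day 0 control. Myog and Myl1 were at it in every day 0 cKO culture too. The muscle sum at day 3 was 1.03 to 2.22 CPM in controls against 105.7 to 1258 in cKO. At day 3, 3 adipocyte markers summed to 1.36 to 2.81 CPM in controls and 26.5 to 39.6 in cKO. In cartilage, 4 osteoclast markers summed to 123.8 to 451.5 CPM in controls against 57.9 to 117.7 in cKO, and 4 endothelial and pericyte markers to 100.6 to 216.2 against 41.1 to 101.5. The part of these shifts in the results on the 7 genes was not tested, and fewer cells of a type and less RNA per cell cannot be told apart in bulk samples. Replicate 4 of the day 3 cKO cultures stood apart. Its chi-square per degree of freedom against the other 3 cKO replicates was 123.9 to 138.4, it had the lowest chondrocyte sum (917.2 CPM), and the values of the 7 genes that use day 3 cKO cultures are given with and without it.

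Levels of the 7 genes can be ordered per kilobase of exon in the total-RNA cultures. Mbd3 was highest in every culture group, from 73.7 ± 3.40 CPM per kb (SD, n = 3) in day 0 controls to 38.0 ± 4.29 (n = 4) in day 3 cKO. Mbd2 came next in every group, between 23.4 and 25.1 CPM per kb, and Mbd4 was lowest, between 1.02 and 1.21. The 4 genes between them changed places. Zbtb38 ranked 5 in day 0 controls at 5.01 ± 0.195 CPM per kb and 3 in day 0 cKO at 8.87 ± 0.624. It ranked 6 in day 3 controls at 4.30 ± 0.322 and 3 in day 3 cKO at 11.9 ± 1.13, where its range overlapped that of Zbtb4, at 11.5 ± 3.11. Zbtb4 ranked 6 at day 0 in both genotypes. The other neighbours whose ranges overlapped were Zbtb4 and Zbtb33 in day 3 controls and Mbd1 and Zbtb33 in day 3 cKO.

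**Figure D1:**
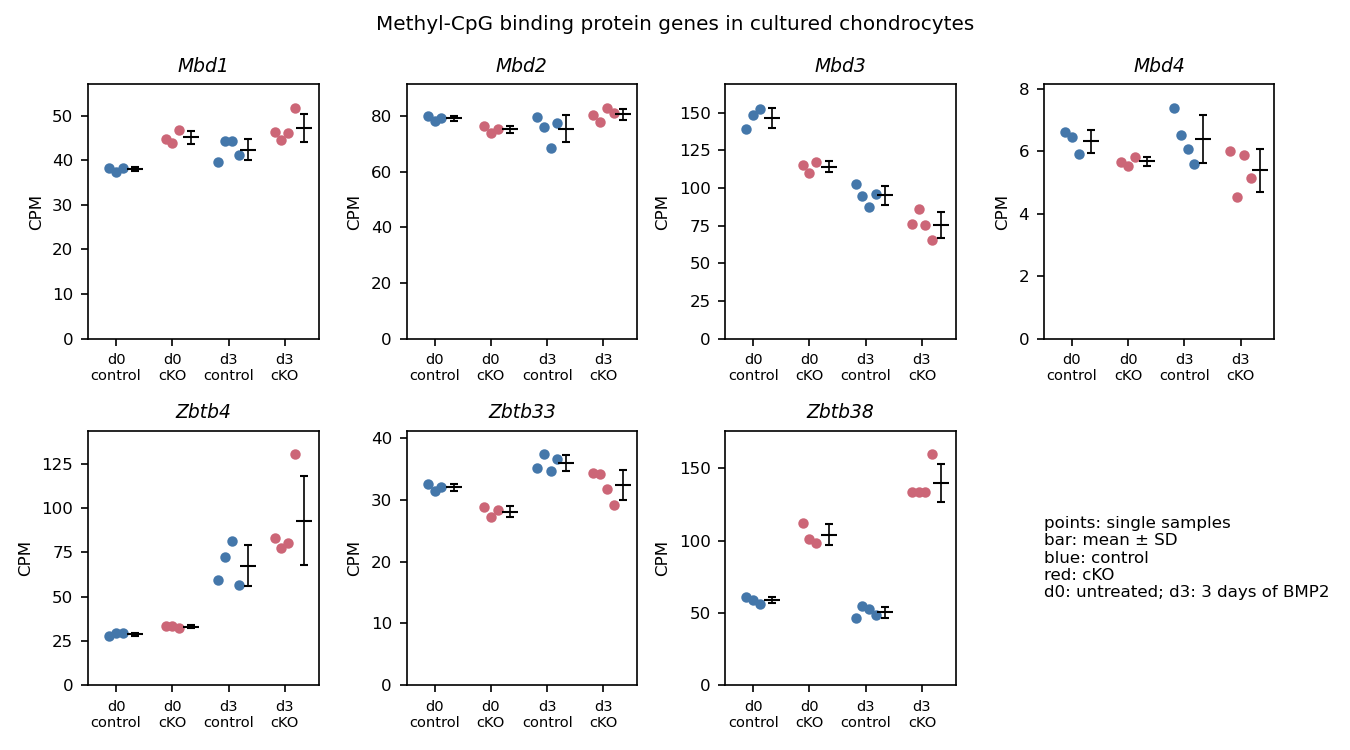
CPM of each of the 7 genes in the 14 cultures, by group (d0, untreated; d3, after 3 days of BMP2). Points are single cultures and bars the mean ± SD of 3 or 4 cultures. Zbtb38 cKO cultures lie at 98.6 to 159.8 CPM, above every control culture at 46.1 to 60.9, and Mbd3 is lower in cKO than in control at both days.

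Among untreated cultures, 6 of the 7 genes passed the test between genotypes. In cKO 3 were higher (Zbtb38, Mbd1 and Zbtb4) and 3 lower (Mbd3, Zbtb33 and Mbd2), with the Mbd2 call lost in each of 12 alternatives. Over all genes tested, 64.5% passed in this comparison, 33.0% higher and 31.6% lower. The largest difference was in Zbtb38, 1.77-fold higher. The other 6 had log2 fold changes between -0.36 and 0.25, against a median size of 0.34 over all genes. The median of the 7 was -0.08, and 0.01 over all genes.

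Zbtb38 (ENSMUSG00000040433), a zinc finger protein that binds DNA with a single methylated CpG, was at 60.9, 59.1 and 56.4 CPM in the day 0 controls. It was at 112.4, 101.2 and 98.6 CPM in the day 0 cKO cultures. Every cKO culture was above every control, and the log2 fold change was 0.82 (SE 0.0535, adjusted p = 1.67e-06 in edgeR's quasi-likelihood test). Zbtb4 (ENSMUSG00000018750), its relative with a similar zinc finger array, was at 27.6, 29.3 and 29.2 CPM in controls and 33.3, 33.6 and 32.1 in cKO. The groups did not overlap, with a log2 fold change of 0.20 (SE 0.0453) and an edgeR adjusted p of 0.00379. With all 14 cultures in 1 fit that adjusted p was 0.394. Zbtb33 (ENSMUSG00000048047), which recruits the NCoR corepressor, was at 32.6, 31.5 and 32.0 CPM in controls and lower in every cKO culture, at 28.8, 27.2 and 28.3. Its log2 fold change was -0.19 (SE 0.0439), with an edgeR adjusted p of 0.00391.

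Of the MBD family at day 0, Mbd3 (ENSMUSG00000035478) had the largest difference. Its levels were 138.9, 148.4 and 152.0 CPM in controls and 115.1, 109.9 and 117.1 in cKO, with no overlap. The log2 fold change was -0.36 (SE 0.0401, edgeR adjusted p = 4.28e-05). Mbd1 (ENSMUSG00000024561) was at 38.2, 37.4 and 38.2 CPM in controls and higher in each cKO culture, at 44.7, 43.8 and 46.7. Its log2 fold change was 0.25 (SE 0.0409, edgeR adjusted p = 5.82e-04). Mbd2 (ENSMUSG00000024513) was at 80.2, 78.4 and 79.3 CPM in controls and 76.5, 74.0 and 75.5 in cKO. Its log2 fold change was -0.08 (SE 0.0303, edgeR adjusted p = 0.0468), and leaving out any 1 of the 6 cultures ended the call, with adjusted p from 0.0599 to 0.126. Over all 12 alternatives, in edgeR or DESeq2, the adjusted p of Mbd2 was 0.0501 to 0.307. Mbd4 (ENSMUSG00000030322) did not pass. It was at 6.62, 6.45 and 5.91 CPM in controls and 5.67, 5.54 and 5.82 in cKO, with no overlap, and its log2 fold change was -0.16 (SE 0.0855) at an edgeR adjusted p of 0.130. All 7 genes thus had groups that did not overlap at day 0, where 70.4% of all genes tested did.

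After 3 days of BMP2, 2 of the 7 genes differed between genotypes, Zbtb38 higher and Mbd3 lower, where 48.1% of all genes tested passed, 25.5% higher and 22.6% lower. Zbtb38 was 2.81-fold higher in cKO. Its controls were at 46.1, 54.6, 52.4 and 48.7 CPM and its cKO cultures at 133.3, 133.6, 133.3 and 159.8. Every cKO culture was above every control.

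The log2 fold change of Zbtb38 at day 3 was 1.49 (SE 0.0954, edgeR adjusted p = 1.43e-05), and without replicate 4 of the cKO it was 1.40 (adjusted p = 4.39e-07). Mbd3 was at 102.5, 94.6, 87.4 and 95.9 CPM in day 3 controls and at 75.8, 86.1, 75.0 and 65.2 in cKO. The ranges came close but did not overlap. Its log2 fold change was -0.32 (SE 0.0847, edgeR adjusted p = 0.0142), and -0.27 without cKO replicate 4 (adjusted p = 0.00995). Replicate 4 had the lowest Mbd3 and the highest Zbtb38 of the 4 cKO cultures.

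The other 5 genes did not pass at day 3. Zbtb4 was at 59.4, 72.7, 81.4 and 56.5 CPM in controls and at 83.2, 77.6, 80.3 and 130.6 in cKO, where replicate 4 was highest. These ranges overlapped. The log2 fold change was 0.48 (SE 0.200, edgeR adjusted p = 0.0772), and 0.25 without cKO replicate 4 (adjusted p = 0.111). Mbd1 ran from 39.7 to 44.4 CPM in controls and from 44.5 to 51.8 in cKO, a log2 fold change of 0.17 (edgeR adjusted p = 0.107), and of 0.10 without cKO replicate 4 (0.211). Zbtb33 ran from 34.6 to 37.4 CPM in controls and from 29.1 to 34.4 in cKO, a log2 fold change of -0.14 (edgeR adjusted p = 0.134), and of -0.10 without that culture (0.201). Neither pair of ranges overlapped, so groups did not overlap for 4 of the 7 genes, against 47.9% of all genes. With all 14 cultures in 1 fit, Mbd1, Zbtb4 and Zbtb33 passed at day 3, with edgeR adjusted p of 0.0354, 0.0228 and 0.0393. Mbd2 had a log2 fold change of 0.11 and Mbd4 one of -0.23, with edgeR adjusted p of 0.179 and 0.240, and 0.09 and -0.22 without cKO replicate 4 (0.245 and 0.264). The median of the 7 was 0.11, and 0.01 over all genes.

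**Figure D2:**
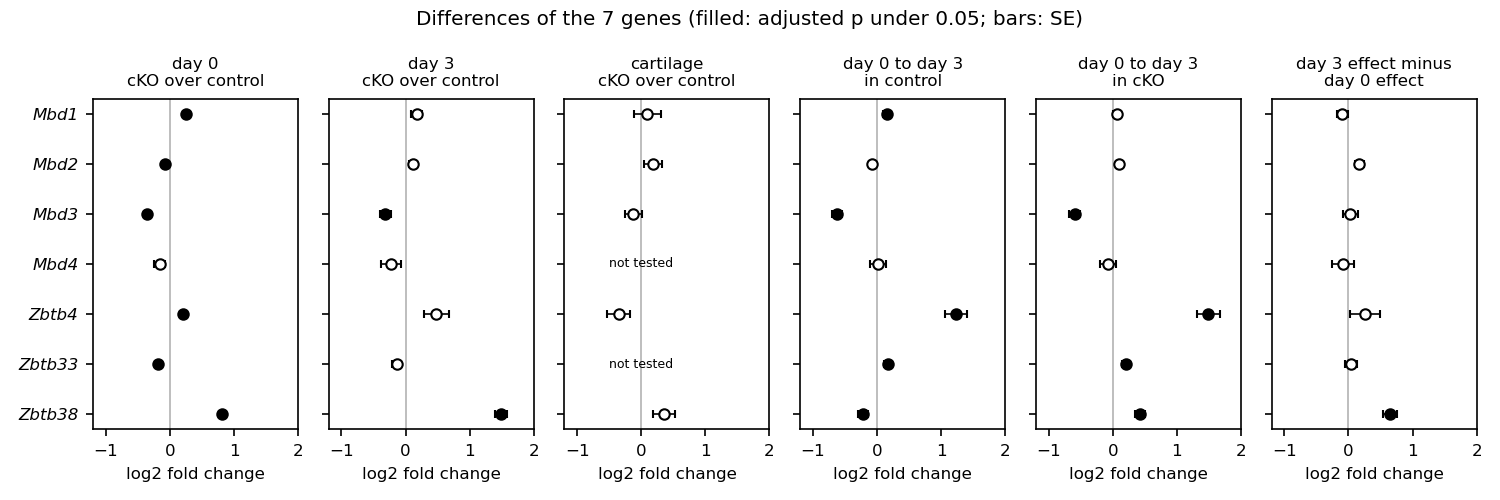
Log2 fold change of each gene in the 6 comparisons, with bars of 1 standard error; filled points have an adjusted p under 0.05 in edgeR. Zbtb38 is at 0.82 at day 0 and 1.49 at day 3, Zbtb4 at 1.23 and 1.49 for the change from day 0 to day 3, and the difference between the 2 genotype effects is filled for Zbtb38 only.

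In postnatal cartilage, none of the 5 genes that passed the filter on low counts differed between genotypes in edgeR's test, where 6.19% of all genes tested did, 3.15% higher and 3.04% lower. The count was also 0 at an unadjusted p under 0.05 and 0 with DESeq2. Zbtb38 again had the higher mean in cKO and Mbd3 the lower. Zbtb38 was at 72.0, 70.8, 89.9 and 60.2 CPM in controls and 99.1, 107.6, 99.9 and 66.3 in cKO. Of the cKO samples, 3 were above every control and replicate 4 was within the control range, and the log2 fold change was 0.35 (SE 0.167, edgeR adjusted p = 0.234). Zbtb4 was at 49.5, 39.2, 54.1 and 52.0 CPM in controls and 25.2, 33.2, 56.2 and 39.6 in cKO. The lowest 2 of the 8 samples and the highest 1 were cKO, and the log2 fold change was -0.35 (SE 0.178, edgeR adjusted p = 0.261). Its sign was opposite to that in cultures. Whether the genotype effect differs between cultures and cartilage was not tested, since the libraries were made by different methods.

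Mbd1, Mbd2 and Mbd3 had overlapping ranges in cartilage. Mbd3 ran from 108.1 to 129.7 CPM in controls and from 91.9 to 121.5 in cKO (log2 fold change -0.12, edgeR adjusted p = 0.629). Mbd2 ran from 67.5 to 80.2 and from 73.5 to 98.2 CPM (0.19, edgeR adjusted p = 0.457). Mbd1 ran from 22.9 to 32.4 and from 20.7 to 39.3 CPM (0.10, edgeR adjusted p = 0.827). With 1 sample left out these values ran from -0.20 to -0.03 for Mbd3, from 0.08 to 0.26 for Mbd2 and from -0.09 (without cKO replicate 3) to 0.26 for Mbd1. Those of Zbtb4 ran from -0.53 to -0.25 and those of Zbtb38 from 0.25 to 0.50, and none of the 5 genes passed. None of the 5 genes tested had groups that did not overlap, where 13.5% of all genes did.

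Mbd4 and Zbtb33 fell below the filter in cartilage, with 3 to 12 counts of Mbd4 and 0 to 5 of Zbtb33 per library in the whole-number table. Mbd4 averaged 5.07 ± 1.83 CPM in controls and 5.87 ± 0.975 in cKO (SD, n = 4 each), and Zbtb33 2.79 ± 1.11 and 3.24 ± 2.16. A floor of 3 counts was 1.59 to 2.73 CPM, so a difference in Zbtb33 was not detectable at this depth. In the authors' estimated counts of the same samples Mbd4 was at 21.7 CPM, 3.97 times its level of 5.47 in the whole-number counts, while Mbd1, Mbd2, Mbd3, Zbtb4 and Zbtb38 were at 0.835 to 0.922 times theirs. In that table Mbd4 passed the filter, with a log2 fold change of -0.14 (edgeR adjusted p = 0.758), and Zbtb4 and Zbtb38 had -0.51 and 0.28 (adjusted p = 0.113 and 0.349). Every control cartilage library belonged to library pool 1 and every cKO one to pool 2, so pool and genotype cannot be told apart.

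**Figure D3:**
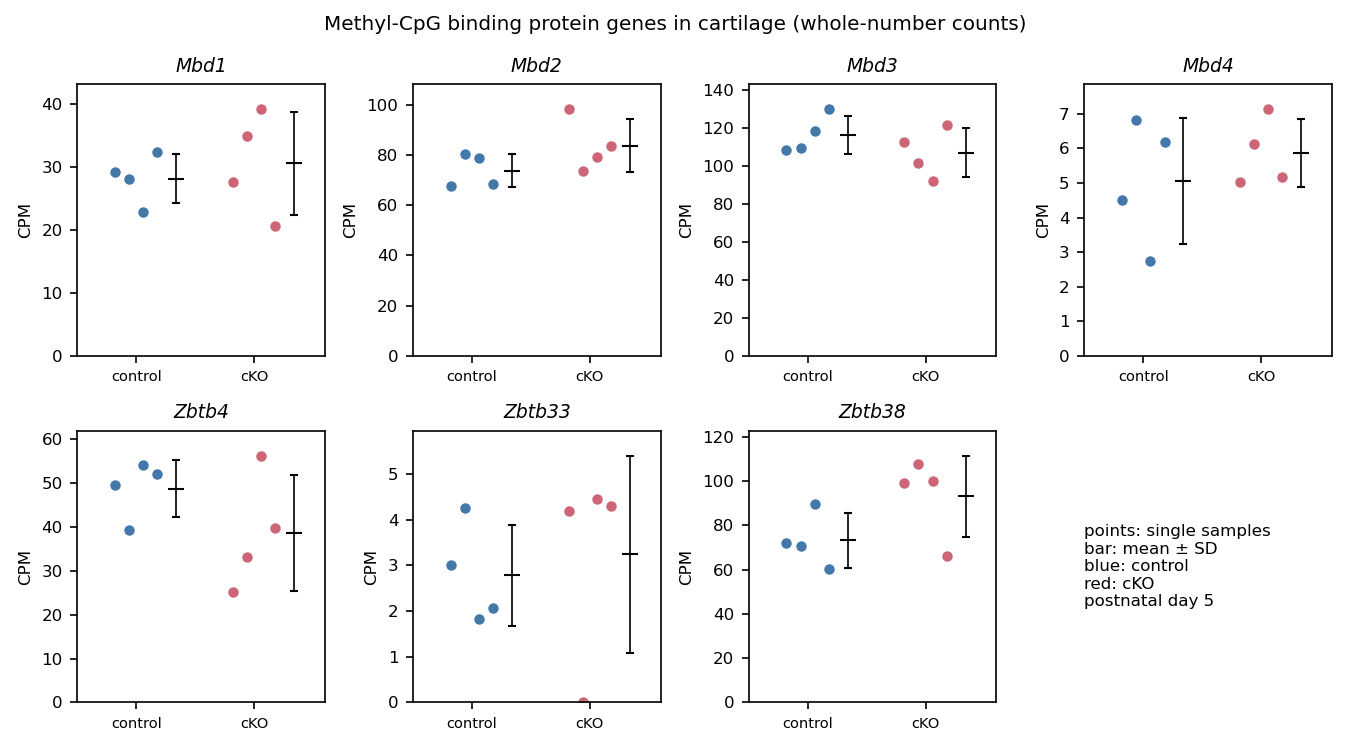
CPM of each gene in the 8 cartilage samples from the whole-number counts, by genotype. Points are single samples and bars the mean ± SD of 4. The genotypes overlap for every gene, and Zbtb33 (0 to 4.46 CPM) lies near the floor of 1.59 to 2.73 CPM.

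Of the 7 genes, Zbtb4 and Mbd3 changed most from day 0 to day 3 of BMP2 in both genotypes. The log2 change of Mbd3 was -0.62 in controls and -0.59 in cKO, against a median size of 0.45 and 0.47 over all genes. In control cultures 5 of the 7 genes passed, 3 higher at day 3 (Zbtb4, Zbtb33 and Mbd1) and 2 lower (Mbd3 and Zbtb38), where 56.9% of all genes tested passed, 28.1% higher and 28.8% lower. In cKO cultures 4 passed, 3 higher (Zbtb4, Zbtb38 and Zbtb33) and 1 lower (Mbd3), where 62.2% did, 32.4% higher and 29.8% lower. The median of the 7 was 0.02 in controls and 0.10 in cKO, and 0 and 0.02 over all genes. Day, BMP2, library depth and deposited table went together, and no culture was sampled at day 3 without BMP2. Time in culture, BMP2 treatment and a difference between the 2 sets of libraries therefore cannot be told apart.

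Zbtb4 rose 2.35-fold in controls, from 27.6 to 29.3 CPM at day 0 to 56.5 to 81.4 at day 3. In cKO it rose 2.81-fold, from 32.1 to 33.6 CPM to 77.6 to 130.6. The groups did not overlap in either genotype. Its log2 fold changes were 1.23 (SE 0.174, edgeR adjusted p = 5.96e-05) and 1.49 (SE 0.175, adjusted p = 1.17e-05), and 1.29 in cKO without replicate 4 (adjusted p = 1.81e-07). Mbd3 fell by 0.62 on the log2 scale in controls (SE 0.0814, edgeR adjusted p = 3.12e-05) and by 0.59 in cKO (SE 0.0815, adjusted p = 4.17e-05), where it was -0.53 without replicate 4 (9.39e-06). Each of the 8 day 3 cultures, at 65.2 to 102.5 CPM, lay below each of the 6 day 0 cultures, at 109.9 to 152.0. The order of the 4 groups for Mbd3, from day 0 control (146.5 ± 6.76 CPM) through day 0 cKO (114.0 ± 3.74) and day 3 control (95.1 ± 6.19) to day 3 cKO (75.5 ± 8.52), had no overlap between neighbours.

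Zbtb38 rose in cKO and was lower at day 3 in controls, the latter with a call that depended on the setting. In cKO it rose from 98.6 to 112.4 CPM at day 0 to 133.3 to 159.8 at day 3, which is 0.43 on the log2 scale (SE 0.0809, edgeR adjusted p = 5.07e-04), and 0.36 without replicate 4 (adjusted p = 2.05e-04). In controls it fell from 56.4 to 60.9 CPM to 46.1 to 54.6, which is -0.22 (SE 0.0809, edgeR adjusted p = 0.0331). The fall in controls lost its call without replicate 1 or 2 of the day 0 controls (adjusted p = 0.103 and 0.0750) and without replicate 1 or 4 of the day 3 controls (0.0866 and 0.0753). It also lost its call with DESeq2's size factors (0.0513), with no filter on low counts (0.0567) and with a mean CPM of at least 5 (0.0974). The genotype effect was larger at day 3 than at day 0 by 0.65 on the log2 scale (SE 0.114, edgeR adjusted p = 0.00252 for the interaction), and by 0.58 without day 3 cKO replicate 4 (adjusted p = 3.43e-04). Zbtb38 was the only 1 of the 7 whose interaction passed, where 16.8% of all genes tested did, 9.94% with a positive and 6.89% with a negative difference. The highest of its 4 group means was day 3 cKO (140.0 ± 13.2 CPM), followed by day 0 cKO (104.0 ± 7.33), day 0 control (58.8 ± 2.28) and day 3 control (50.5 ± 3.78), with no overlap between neighbours.

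Smaller changes over the 3 days were seen in Zbtb33 and Mbd1. Zbtb33 rose in controls from 31.5 to 32.6 CPM to 34.6 to 37.4 (log2 fold change 0.17, edgeR adjusted p = 0.0345) and in cKO from 27.2 to 28.8 CPM to 29.1 to 34.4 (0.20, adjusted p = 0.0114). The call in controls was lost on leaving out any of the 6 day 0 cultures or day 3 control replicate 2 or 4, 8 of 14 cultures in all, with adjusted p up to 0.118. The call in cKO was lost without day 0 cKO replicate 2 (0.0633), and the change was 0.25 without day 3 cKO replicate 4 (7.88e-04). Mbd1 rose in controls from 37.4 to 38.2 CPM to 39.7 to 44.4 (log2 fold change 0.16, edgeR adjusted p = 0.0402). That call remained without day 3 control replicate 1 or 4 or day 3 cKO replicate 4 and was lost in the other 11 fits, with adjusted p up to 0.118. In cKO its change was 0.06 (edgeR adjusted p = 0.381), and 0.02 without replicate 4 (0.782). Mbd2 had changes of -0.07 and 0.10 (edgeR adjusted p = 0.270 and 0.117), and Mbd4 of 0.02 and -0.07 (0.930 and 0.626). Without day 3 cKO replicate 4 the cKO changes were 0.10 for Mbd2 (0.113) and -0.05 for Mbd4 (0.743). The Mbd2 change in cKO passed without day 3 control replicate 3 (0.0477) and with DESeq2 (adjusted p = 0.0457). The interactions of the 6 genes other than Zbtb38 lay between -0.10 and 0.26 on the log2 scale and did not pass (edgeR adjusted p from 0.140 to 0.901). The highest was that of Zbtb4, which was 0.05 without day 3 cKO replicate 4 (adjusted p = 0.842). Without that culture the other 5 lay between -0.14 and 0.17 (0.101 to 0.822). Groups did not overlap between the days for 5 of the 7 genes in controls and 5 in cKO, against 64.0% and 62.5% of all genes.

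Across the 14 cultures, Mbd3 and Zbtb4 ran opposite to each other (Pearson r of log2 CPM -0.95), as did Mbd1 and Mbd3 (-0.81), while Mbd1 and Zbtb38 ran together (0.75). Mbd2 had r between -0.11 and 0.32 with each of the other 6. These values describe 14 cultures that share 4 groups. Among 11864 genes, those most like Zbtb38 were Ppa2 (r = 0.988) and Tes (0.987), those most like Zbtb4 were Atp6ap2 and Ccnd2 (0.989 each), and those most like Mbd3 were Srm (0.987) and Ybx1 (0.983). Mbd1 was near Kif1b (0.974), and Zbtb33 nearest to Vhl (0.958) and Ctnnb1 (0.956). Mbd2 and Mbd4 had no gene as near. The highest for Mbd2 were Vps45 (0.822) and Tmem64 (0.808), and for Mbd4 Ddb2 (0.837) and Gm10443 (0.836).

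The partners of these proteins were taken from fixed lists, beginning with 13 NuRD subunits, the complex that holds Mbd2 or Mbd3. At day 0, 2 of 13 passed higher in cKO and 6 lower, and the median of their log2 fold changes was -0.10. Of all genes 33.0% were higher and 31.6% lower. With all 14 cultures in 1 fit 1 subunit was higher and 3 lower. That fit called 6260 of 14909 genes at day 0, against 10023 of 15530 in the fit of day 0 alone. The helicase gene Chd5 was lower (-1.35, SE 0.128, edgeR adjusted p = 1.64e-05) and averaged under 5 CPM in the day 0 cultures. Also lower were the histone chaperone gene Rbbp7 (-0.52, edgeR adjusted p = 6.15e-07) and Mta1 (-0.42, adjusted p = 1.59e-05). At day 3, 3 were higher and 4 lower, where 25.5% and 22.6% of all genes were. The helicase gene Chd3 was higher (1.02, SE 0.233, edgeR adjusted p = 0.00697) and Rbbp7 lower (-1.36, SE 0.170, adjusted p = 3.44e-04). Without cKO replicate 4 these values were 0.75 for Chd3 and -1.21 for Rbbp7 (edgeR adjusted p = 0.00161 and 3.52e-07). The interaction passed for Chd5 (1.70, edgeR adjusted p = 7.83e-04), Chd3 (1.09, 0.0176) and Rbbp7 (-0.86, 0.0170). The number of lower NuRD genes at day 3 was 2 without control replicate 1, 2 or 4. From day 0 to day 3, 1 rose and 5 fell in controls, and 3 rose and 7 fell in cKO, where 28.1% and 28.8% of all genes did in controls and 32.4% and 29.8% in cKO. In controls 8 fell without day 3 cKO replicate 4, and the 1 that rose lost its call without any 1 of the day 0 controls or of day 3 control replicates 1, 2 and 4. Cdk2ap1 fell in both genotypes (-0.70 and -0.93, edgeR adjusted p = 0.00116 and 1.16e-04). None of 11 tested in cartilage passed in edgeR or DESeq2, where 6.19% of all genes passed in edgeR. The count was 0 at an unadjusted p under 0.05 with either.

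**Figure D4:**
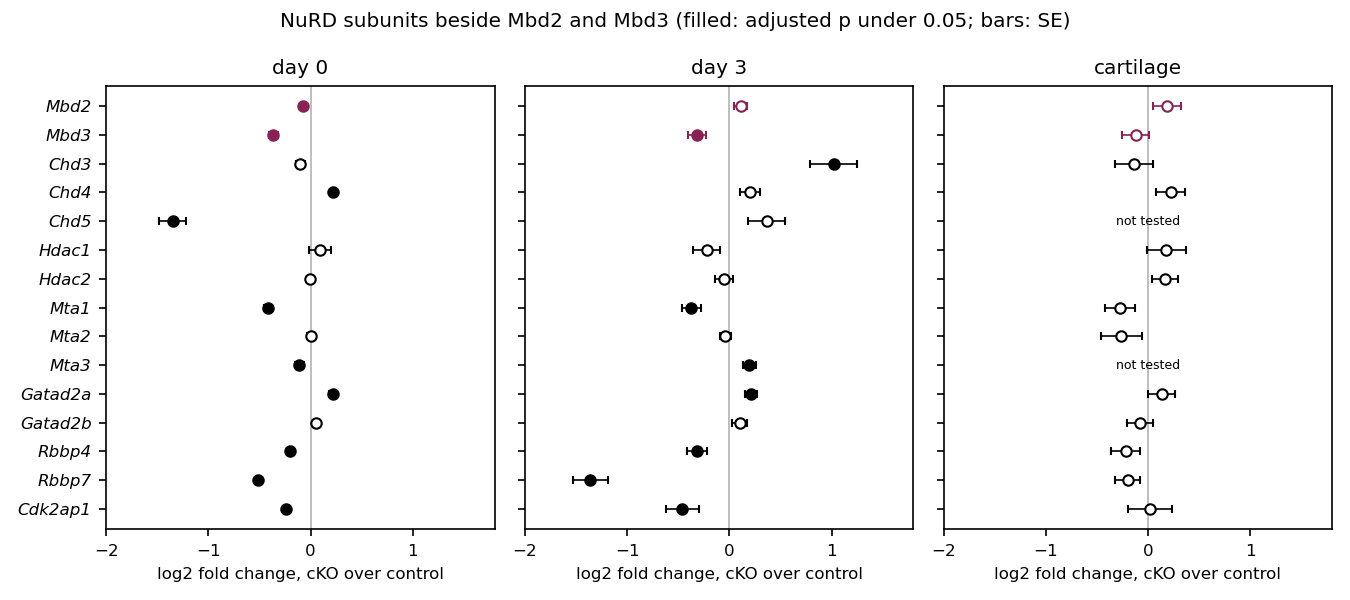
Log2 fold change, cKO over control, of Mbd2, Mbd3 (purple) and 13 NuRD subunits (black) in the 3 settings, with bars of 1 standard error; filled points have an adjusted p under 0.05 in edgeR. Rbbp7 is lower in cKO at both days (-0.52 and -1.36), Chd5 is lower at day 0 (-1.35), and no point is filled in cartilage.

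Of 8 genes of the MBD1 and SETDB1 list, 5 were higher in cKO at day 0 and 1 lower, with a median log2 fold change of 0.27, where 33.0% and 31.6% of all genes were. With all 14 cultures in 1 fit 3 were higher and none lower, where 6260 of 14909 genes were called. Atf7ip2 (2.35, SE 0.241, edgeR adjusted p = 2.74e-05), Chaf1a of the CAF-1 histone chaperone (0.57, adjusted p = 5.52e-06) and Atf7ip, the gene of the SETDB1 cofactor that also binds MBD1 (0.47, adjusted p = 1.45e-05), had the largest differences. In that fit the call of Chaf1a was lost (edgeR adjusted p = 0.0864). Atf7ip2 averaged under 5 CPM in the day 0 cultures and was not tested between genotypes at day 3 or in cartilage. At day 3 Atf7ip was higher (0.38, edgeR adjusted p = 0.00422) and 1 of the 7 tested was lower, a call lost without control replicate 1, 2 or 4 or cKO replicate 1 or 3. Without control replicate 1, 2 were higher, and without cKO replicate 4, or with all 14 cultures in 1 fit, 3 were. Over all genes 25.5% were higher and 22.6% lower. From day 0 to day 3, 6 of 8 of these genes fell in controls and 7 of 8 in cKO, against 1 that rose in each. With 1 culture left out, 4 to 7 fell in controls and 7 in cKO. Over all genes 28.8% and 29.8% fell, and 28.1% and 32.4% rose. Chaf1a fell by 1.14 and 1.77 on the log2 scale (edgeR adjusted p = 0.00135 and 4.13e-05), and Cbx5, the heterochromatin protein HP1α gene, by 0.89 and 0.90 (2.78e-05 and 2.30e-05). No interaction passed, where 16.8% of all genes did. None of 5 tested in cartilage passed in edgeR or DESeq2, with 0 at an unadjusted p under 0.05. In edgeR 6.19% of all genes passed there.

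Of 10 Kaiso and corepressor partners, 9 were tested in cultures. Ctnnd1, the gene of p120-catenin, which binds Kaiso, was higher in cKO at day 0 (0.42, edgeR adjusted p = 3.36e-06) and day 3 (0.69, adjusted p = 0.00780). Tbl1x, a subunit of the NCoR complex, was lower at both (-0.38 and -0.52, edgeR adjusted p = 8.90e-06 and 6.01e-04). In all, 3 were higher and 1 lower at day 0, and 1 higher and 3 lower at day 3, where 64.5% and 48.1% of all genes passed in either direction. At day 3 only 1 was lower without control replicate 2 or 4 or cKO replicate 3. Without control replicate 3, 2 were higher. From day 0 to day 3, Tbl1xr1 rose in both genotypes (1.41 and 1.02, edgeR adjusted p = 1.44e-06 and 1.67e-05). Over that time 2 rose and 3 fell in controls (5 without day 3 control replicate 3), and 2 rose and 4 fell in cKO, where 56.9% and 62.2% of all genes passed. In cartilage 0 of 9 passed in edgeR or DESeq2, where 6.19% of all genes passed in edgeR. At an unadjusted p under 0.05 there was 1 by each.

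The repair list set beside Mbd4 held 10 genes, among them glycosylases other than MBD4, such as Ung and Tdg. At day 0, 5 were higher in cKO and 4 lower, where 33.0% and 31.6% of all genes were. With all 14 cultures in 1 fit 3 were higher and 1 lower, where 6260 of 14909 genes were called. The flap endonuclease gene Fen1 was higher (0.68, SE 0.0539, edgeR adjusted p = 5.61e-06), and the uracil glycosylase gene Ung (-0.67, SE 0.0684, adjusted p = 2.61e-05) and the ligase gene Lig3 (-0.40, adjusted p = 1.56e-05) were lower. In that fit the day 0 call of Ung was lost (edgeR adjusted p = 0.107). At day 3, 2 were higher and 3 lower, with Ung at -2.47 (SE 0.414, edgeR adjusted p = 0.00154), and -2.19 without cKO replicate 4 (adjusted p = 1.51e-04). Over all genes 25.5% were higher and 22.6% lower. In cartilage Ung was lower (-1.65, SE 0.302, edgeR adjusted p = 0.00322). It was the only gene of the 5 lists that passed there, where 6.19% of all genes did. From day 0 to day 3, 6 of 10 fell in controls and none rose, but 1 rose without day 3 control replicate 2 or cKO replicate 4. In controls 28.8% of all genes fell and 28.1% rose. In cKO 8 fell and 2 rose, with Fen1 at -1.77 and Tdg, the other thymine glycosylase, at -1.29 (edgeR adjusted p = 1.82e-06 and 2.46e-08). Over all genes 32.4% rose and 29.8% fell. Of the repair genes, 1 rose without day 0 cKO replicate 1 or day 3 cKO replicate 2 or with day 0 counts thinned, and none without day 0 cKO replicate 3. The fall of Ung in cKO was -2.65 (edgeR adjusted p = 1.92e-05), and its interaction was -1.81 (0.0161).

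Of 5 other genes with an MBD domain, 3 were higher at day 0 and none lower, where 33.0% and 31.6% of all genes were. With all 14 cultures in 1 fit only Baz2a was called, where 6260 of 14909 genes were. Baz2a, a subunit of the nucleolar remodelling complex NoRC, had a log2 fold change of 0.26 (edgeR adjusted p = 1.53e-04) and Baz2b one of 0.19 (0.0114, and 0.257 in the fit of 14). Setdb2 had one of 0.31 (0.0128), with a call lost in the fit of 14 (0.108) and without day 0 control replicate 1 (0.0543). At day 3, 1 was higher (Baz2a, 0.38, edgeR adjusted p = 0.0232) and 1 lower, where 25.5% and 22.6% of all genes were. The lower one was Setdb2 (-0.49, edgeR adjusted p = 0.0266), whose sign was opposite to that at day 0. Each of these day 3 calls was lost on omission of any of 3 cultures. The higher one was lost without control replicate 1 or 4 or cKO replicate 1, and the lower one without control replicate 1 or 2 or cKO replicate 2. Of this list only Setdb2 passed for the interaction (-0.81, edgeR adjusted p = 0.0154), where 16.8% of all genes did. That call was kept with any 1 culture left out (edgeR adjusted p up to 0.0473). None of 4 tested in cartilage passed in edgeR or DESeq2, where 6.19% of all genes passed in edgeR. At an unadjusted p under 0.05 there was 1 in edgeR and 0 in DESeq2.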

How the data were processed

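RNA levels in 14 chondrocyte cultures and 8 cartilage samples of mice were analysed. For the cultures the authors deposited estimated counts per gene, 1 table for day 0 and 1 for day 3, of which 27.6% and 20.5% of values were not whole; they were rounded to whole numbers. Culture libraries were made from total RNA with a directional kit, per the labels' protocols, and their aligner and counting tool are not given in the sources used here. For cartilage, whose libraries were made with a 3′ barcoding method with molecular identifiers (BRB-seq), the authors deposited whole-number counts, used as the main values, and estimated counts, used as an alternative. Per the submitters' processing notes the build was GRCm38, and UMI-tools 1.1.1, Trim Galore 0.6.7, HISAT2 2.2.1, featureCounts 2.0.1 and DESeq2 1.34.0 were used for cartilage, with no roles stated. Ribosomal RNA genes held 9.96 to 23.6% of the whole-number counts per library. Unused per-sample columns numbered 0. Groups came from the labels.

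Counts were filtered with filterByExpr (minimum count 10, minimum total 15), scaled with TMM and tested in R 4.3.3 with edgeR 4.0.16 (glmQLFTest, the quasi-likelihood test), with Benjamini-Hochberg adjustment over all genes tested and a call at an adjusted p under 0.05. Genotype was tested within day 0, within day 3 and within cartilage, the last with sex as a covariate. Changes from day 0 to day 3, and their difference between genotypes (interaction), came from 1 fit of all 14 cultures. A standard error was obtained from each F value, as the absolute log2 fold change over its square root. CPM of cultures share 1 TMM scale. Levels per kilobase used the union of GENCODE M21 exons. Correlations used log2 CPM with a prior count of 2, over genes whose log2 CPM averaged 1 or more. The code was tested on simulated data.

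The 7 genes and the partner and marker lists were chosen with earlier results of these data known. All 7 genes were to be named in every comparison. Of each partner list, the 3 genes with the largest change among those called could be named, and, for each of the 7, the 2 genes with the highest correlation over the cultures. A few genes that this rule would name are not reported here. Alternatives were DESeq2 1.42.0, its size factors in edgeR, no filter, a mean CPM of at least 5, all 14 cultures in 1 fit, the replicate number as a block, day 0 counts thinned to the depth of day 3, no sex covariate, the estimated cartilage counts, and leaving out each sample. Standard errors and SDs cover the spread between samples, and floors cover counting error only.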

Additional observations from a re-analysis of the deposited data

Results flagged for a closer look

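Zbtb38 had 159.8 CPM in replicate 4 of the day 3 cKO cultures, far from the other 3, at 133.3 to 133.6 CPM. In the same culture Zbtb4 was at 130.6 CPM, far from the others at 77.6 to 83.2. That culture also had the lowest sum of chondrocyte markers, 917.2 CPM, and the part of this in the 2 values was not tested. In cartilage, Zbtb33 was at 0 CPM in cKO replicate 2, where the other 3 cKO samples had 5 counts each and 3 counts correspond to 1.59 to 2.73 CPM in these libraries. About 1 in 20 groups of this size would be singled out by chance in this way. The genotype effect on Zbtb38 was larger at day 3 than at day 0 by 0.65 on the log2 scale in the interaction test of edgeR (adjusted p = 0.00252), with adjusted p from 1.84e-05 to 0.0104 over its 20 alternatives. Zbtb38 was higher in cKO in 3 of 3 cultures at day 0 and 4 of 4 at day 3.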

How the results depend on the processing

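Over all alternatives run for them, the calls of Zbtb38 and Mbd3 between genotypes at both days, of Mbd1 and Zbtb33 at day 0, of Zbtb4 and Mbd3 between days in both genotypes, and of the Zbtb38 rise in cKO and its interaction were kept. All genes called at day 0 numbered 6260 of 14909 with all 14 cultures in 1 fit, and 4 of the 7 genes were then called. In that fit 5 of the 7 genes were called at day 3. In cartilage 1044 genes were called with no filter and 357 with DESeq2, and 362 to 630 with 1 sample left out (362 without cKO replicate 4). Without the filter, 2 of the 7 were called for the change in controls, and 2 to 5 with 1 culture left out. Interactions called over all genes ran from 1591 to 4051 with 1 culture left out, the highest without day 3 cKO replicate 4.

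Signs turned only for values that had not passed. With 1 sample left out, Mbd1 in cartilage ran from -0.091 (without cKO replicate 3) to 0.26, the Mbd4 change in controls ran from -0.060 to 0.074, the Mbd3 interaction from -0.044 to 0.095 and the Zbtb33 interaction from -0.0019 to 0.087. With day 0 counts thinned, the Mbd4 change in cKO was 0.13 and its interaction 0.0091. Same-numbered samples had correlations of their deviations from group means between -0.22 and 0.18, not every sample correlated best with its own number, and the numbers were not taken to pair samples. With a replicate block, 5, 2, 0, 4, 4 and 1 of the 7 genes were called at day 0, day 3, in cartilage, for the change in controls, in cKO and for the interaction. The block ended the calls of Mbd2 at day 0 (edgeR adjusted p = 0.0881) and of Mbd1 in controls (adjusted p = 0.0921).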
